A study of Mus musculus with 12 samples.

Results

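Gene expression was compared between mT69a and mT6, 2 organoid lines grown from mouse pancreatic ductal adenocarcinoma (PDA), each in its control state. The members were chosen by sample title: the 2 libraries mT69a_mRosa26_Empty (mT69a controls below) and the 2 libraries mT6_mRosa26_Empty (mT6 controls), 4 of the 12 libraries of the series. Both lines come from tumours of mice with the labelled strain C57/Bl6, whose labelled genotype includes Trp53LSLR172H/LOH and Pdx1-Cre. In such mice Cre recombinase, driven by the promoter of the pancreatic factor Pdx1, switches on mutant Trp53 in pancreatic epithelium. The series' design text gives Trp53LSLR172H/+ for the animals. Each control is 1 Rosa26 knock-out clone carrying an empty over-expression vector, Rosa26 being a locus commonly cut as a neutral target. With 1 clone a line, differences between lines and differences between clones cannot be told apart, and since no label states that the replicates were cultured apart, the p-values cover the spread from library to library, which may be technical. For comparison, the same 2 lines were set against each other as Spdef knock-out clones with the empty vector (mT69a knockouts and mT6 knockouts, 2 libraries each). Those are other clones and share no library with the controls. All organoids grew in domes of Matrigel, a basement membrane gel, in mouse complete organoid medium. Only genes of chromosomes 1 to 19 were compared.

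The pancreas forms from foregut endoderm, next to the stomach and the duodenum. Transcription factors of the GATA, HNF4 and FOXA families act across this endoderm, and Pdx1 and Sox9 mark its pancreatic branch. In the intestine, HNF4 factors sustain enterocytes, the absorptive cells with a brush border, while Wnt signalling sustains stem cells that carry Lgr5 and Olfm4. Tumours of the pancreas often express gastric or intestinal genes, and loss of endodermal factors such as Gata6 is known from human tumours of the less differentiated kind.

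Total RNA was sequenced as stranded libraries. The mT69a controls held 15350815 and 14724534 expected counts and the mT6 controls 11589956 and 28903831, within a range of 9094295 to 28903831 over the 12 libraries. Mitochondrial genes took 12.7% to 15.5% of counts in replicate 1 libraries and 18.6% to 27.1% in replicate 2 libraries of both lines, so this share ran with the replicate number and not with the line. Levels below are in CPM, counts brought to a common library size with TMM scaling, listed in the order replicate 1, replicate 2. Fold changes are log2 of mT69a over mT6 with their standard error, and adjusted p is the Benjamini-Hochberg value of edgeR's quasi-likelihood test over all genes tested, with 0.05 as the threshold.

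Of 14047 autosomal genes that passed the count filter, 1885 (13.4%) were higher and 2074 (14.8%) lower in mT69a controls than in mT6 controls, together 28.2%. Changes of over 2-fold made up 756 of the higher and 1267 of the lower genes. The groups' libraries did not overlap for 63.0% of all tested genes and for every called gene. With 1 library left out in turn (mT69a control 1, mT69a control 2, mT6 control 1 and mT6 control 2, an order kept below), the higher calls numbered 897, 1678, 1291 and 1028 and the lower calls 1074, 1525, 1582 and 1522. With the replicate number as a block the calls were 2859 higher and 3023 lower. The list members counted below passed the count filter, so each count is over measured members and not over the whole list. Counts of 4 or fewer members could move by over 1.5 times with a library left out and are given without those values where none follow.

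Gata6, Gata5, Hnf4a, Foxa2 and Onecut2, all endodermal factors, were higher in mT69a, whereas Foxa1 was lower. Gata5, a zinc finger factor of gut endoderm (GRCm38 chr2:180325133-180334699), had 22.7 and 19.9 CPM in mT69a controls, against 0.0762 and 0.0714 CPM in mT6 controls. With 658 counts over both mT69a controls and 3 over both mT6 controls, it was 292-fold (exact 95% counting interval 99.6 to 1422) higher in mT69a, adjusted p = 1.11e-05. Gata6, a factor of pancreas and gut development on chromosome 18, had 3.31 and 3.03 CPM in mT69a controls, against 0 and 0 CPM in mT6 controls. It was at least 43.6-fold higher, taking 3 counts over the 2 mT6 controls as the floor, adjusted p = 0.000819. Both GATA genes were thus at or near 0 in mT6, while Gata4 had 36.1 and 30.0 CPM in mT69a against 30.7 and 19.6 in mT6 and did not pass the test (log2 fold change 0.40 ± 0.36, adjusted p = 0.453).

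Hnf4a, a nuclear receptor that drives enterocyte and liver genes (GRCm38 chr2:163506808-163572910), had 152 and 141 CPM in mT69a controls, against 16.6 and 20.2 CPM in mT6 controls, log2 fold change 2.99 ± 0.24, adjusted p = 1.67e-05. Foxa2, a pioneer factor that opens endodermal enhancers, had 15.4 and 14.3 CPM in mT69a controls, against 2.44 and 1.61 CPM in mT6 controls, log2 fold change 2.91 ± 0.35, adjusted p = 0.000235. As for every gene called higher, the mT69a controls stood above the mT6 controls for both genes. Onecut2, a factor of hepatic and pancreatic progenitors that also lies on chromosome 18, was higher by a smaller factor (194 and 211 CPM in mT69a against 54.6 and 61 in mT6, log2 fold change 1.81 ± 0.16, adjusted p = 2.98e-05). Foxa1, the pioneer factor closest to Foxa2, went the other way, with 5.75 and 7.27 CPM in mT69a controls, against 42.3 and 29.9 CPM in mT6 controls, log2 fold change -2.47 ± 0.25, adjusted p = 8.34e-05.

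Pdx1, the factor that defines the pancreatic bud, had 39.3 and 39.7 CPM in mT69a against 29.9 and 34.4 in mT6 and did not pass the test (log2 fold change 0.29 ± 0.12, adjusted p = 0.0968, 0.0414 with the replicate block). Sox9, a factor of pancreatic progenitors and ducts, had 25.4 and 22.8 CPM in mT69a against 50.5 and 32 in mT6 and did not pass either (log2 fold change -0.77 ± 0.41, adjusted p = 0.206, 0.0331 with the block). Cdx2, the caudal factor that specifies intestine, had 62.9 and 64.6 CPM in mT69a against 64.8 and 72.8 in mT6 (log2 fold change -0.11 ± 0.15, adjusted p = 0.638), and Foxa3 had 5.25 and 5.72 CPM in mT69a against 9.06 and 6.39 in mT6 (log2 fold change -0.48 ± 0.22, adjusted p = 0.131). Sox2 and Barx1, factors of the stomach, had no count in any of the 4 libraries. Both lines therefore carried RNA of the pancreatic and of the intestinal factor and no count of these gastric ones. In TPM, the level scaled for transcript length, Hnf4a had 64.3 and 54.2 TPM in mT69a controls, against 5.94 and 7.27 TPM in mT6 controls, and Pdx1 had 22.2 and 19.4 TPM in mT69a controls, against 16.6 and 17.2 TPM in mT6 controls. Of the 20 measured of 30 lineage factors, 6 were higher and 4 lower, and the median log2 fold change was -0.03, as over all genes (-0.03). The 6 higher calls held with any library left out, but the 4 lower calls became 1, 2, 3 and 1.

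**Figure D1:**
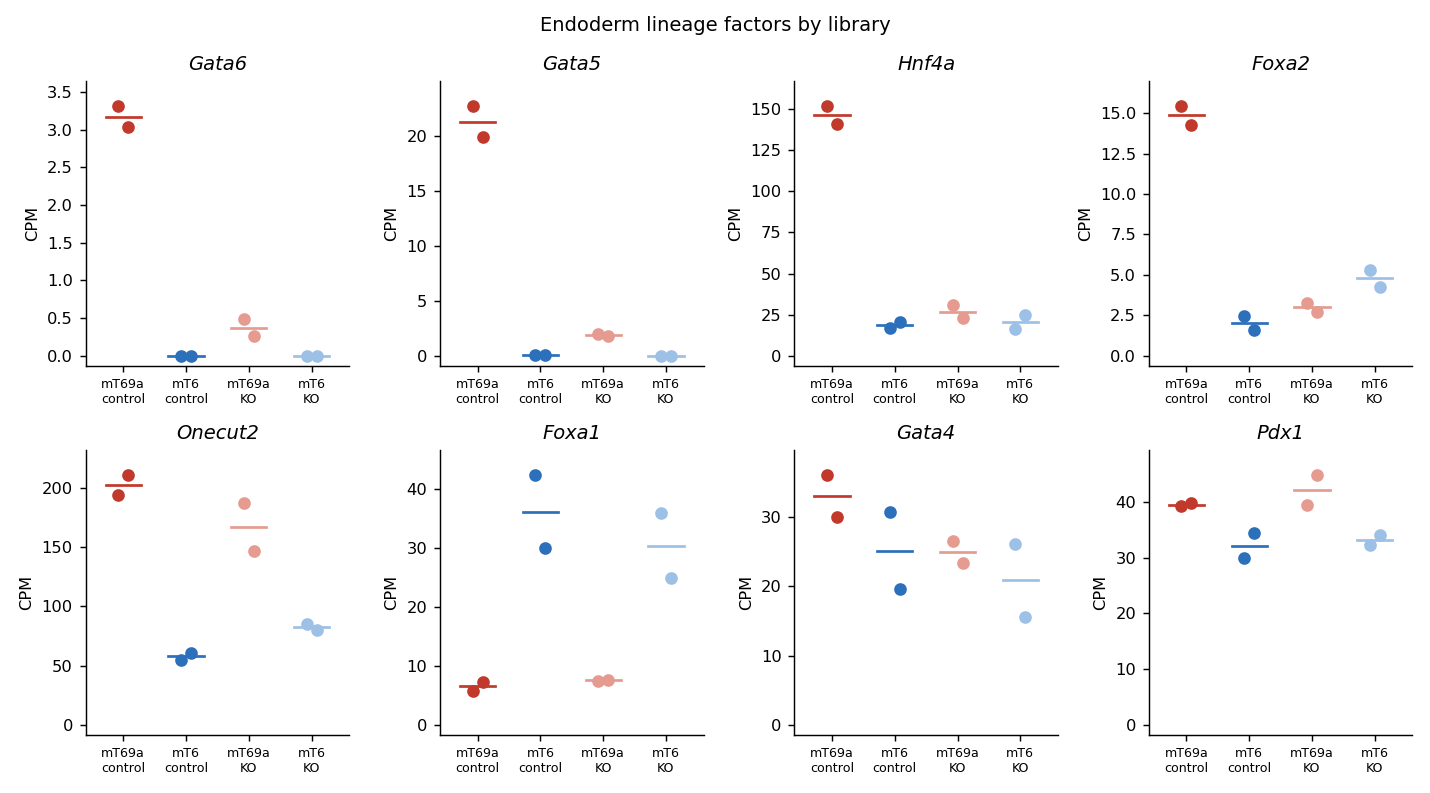
Levels of 8 lineage factors in CPM on linear axes, with a point for each library and a line at the group mean, for mT69a and mT6 controls and then for mT69a and mT6 Spdef knockouts (KO). Gata6, Gata5, Hnf4a, Foxa2 and Onecut2 were higher in mT69a controls than in mT6 controls and Foxa1 lower, while Pdx1 and Gata4 were nearer in level.

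Factors of other epithelial fates were more often lower than higher in mT69a. Of 32 measured members of that list, 15 were lower and 2 higher, with a median of -0.59, and the lower calls became 10, 13, 13 and 14 with a library left out. Runx3, a factor of epithelia and lymphocytes, had 0 and 0 CPM in mT69a controls, against 15.8 and 11.8 CPM in mT6 controls. It was at least 134-fold lower, adjusted p = 1.49e-05. Elf5, an ETS factor of secretory epithelia such as the mammary alveoli, had 1 count over both mT69a controls and 396 over both mT6 controls, and was 297-fold (exact 95% counting interval 53 to 11759) lower, adjusted p = 1.88e-05. Rarb, a retinoic acid receptor, had 0 counts over both mT69a controls and 116 over both mT6 controls, and was at least 29-fold lower, adjusted p = 0.000957. Bhlha15, which builds the secretory apparatus of acinar cells, had 0.25 and 0.606 CPM in mT69a against 4.49 and 3.46 in mT6, log2 fold change -3.20 ± 0.56, adjusted p = 0.00211. Spdef itself, the ETS factor of mucus-producing cells that the study removed in other clones, was low in both controls (0.125 and 0.269 CPM in mT69a against 2.28 and 1.04 in mT6, log2 fold change -3.0 ± 0.92, adjusted p = 0.0341). Its call was lost in DESeq2 (adjusted p = 0.0796) and without mT69a control 1 (0.22), mT69a control 2 (0.096) or mT6 control 1 (0.166).

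Genes of the enterocyte brush border and of lipid and xenobiotic handling were among the 15 named for the largest positive fold change, namely Alpi, Akp3, Apob, Ugt2b35 and Cyp2c65. Alpi, the intestinal alkaline phosphatase, had 17.8 and 10.6 CPM in mT69a controls, against 0 and 0 CPM in mT6 controls, and was at least 197-fold higher, adjusted p = 0.000133. Akp3, its duodenal relative, was at least 53.3-fold higher (5 and 2.69 CPM in mT69a against 0 and 0 in mT6, adjusted p = 0.00392, 0.228 in DESeq2). Apob, the structural protein of chylomicrons, had 134 and 185 CPM in mT69a controls, against 0 and 0.25 CPM in mT6 controls, log2 fold change 9.83 ± 0.48, adjusted p = 8.77e-06. In all 3 genes the mT6 controls lay at or near 0. In bulk RNA, fewer cells of a type and less RNA per cell cannot be told apart. Cdhr2, a protocadherin that links microvilli, had 97.8 and 112 CPM in mT69a controls, against 0.762 and 1.04 CPM in mT6 controls, log2 fold change 6.81 ± 0.57, adjusted p = 4.17e-05, and its partner Cdhr5 had 46.9 and 50.9 CPM in mT69a against 9.67 and 17.6 in mT6, log2 fold change 1.83 ± 0.39, adjusted p = 0.00749. Ugt2b35 and Ugt2b34, glucuronosyltransferases that conjugate steroids and drugs, had 19.1 and 23.2 CPM in mT69a against 0 and 0 in mT6 and 232 and 350.0 CPM in mT69a against 0.533 and 2.04 in mT6. Ugt2b35 was at least 289-fold higher, adjusted p = 2.00e-05, and Ugt2b34 differed with a log2 fold change 7.64 ± 0.86, adjusted p = 0.000367. Cyp2c65, a cytochrome P450 of the gut, was at least 37.8-fold higher (3.25 and 2.22 CPM in mT69a against 0 and 0 in mT6, adjusted p = 0.00136). Members of the Ugt2b, Cyp2c and alkaline phosphatase families have near-identical copies among which estimated counts can be split, so values of single members are uncertain.

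The mT6 line was not without intestinal RNA. Vil1, the microvillus protein villin, had 182 and 189 CPM in mT69a controls, against 180.4 and 179 CPM in mT6 controls and did not differ past the threshold (log2 fold change 0.05 ± 0.13, adjusted p = 0.839). Of 25 measured of 44 gastric and intestinal genes, 10 were higher and 5 lower in mT69a, with a median of 0.42, and the higher calls became 9, 7, 7 and 8 with a library left out. Lypd8, a colonic antibacterial surface protein, had 14.5 and 15.8 CPM in mT69a against 0 and 0.321 in mT6, log2 fold change 6.14 ± 0.70, adjusted p = 0.00018. Ctse, the gastric protease cathepsin E, had 10 and 8.15 CPM in mT69a against 0.381 and 0.179 in mT6, log2 fold change 5.13 ± 0.46, adjusted p = 5.81e-05. In the other direction, Pigr, the receptor that carries IgA across epithelium, had 1.13 and 0.606 CPM in mT69a controls, against 177 and 66.2 CPM in mT6 controls, log2 fold change -7.10 ± 0.64, adjusted p = 9.52e-05. Fabp1 and Sis, which mature enterocytes express strongly, had no count in any of the 4 libraries.

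Promoters of 3 of the genes named above and of Gimd1, which was at least 76-fold higher, are shown because they hold a motif of an endodermal factor that differed between the lines. Each is the 250 bases before the RefSeq start site, on the gene's strand (GRCm38.p6). Capitals mark the HNF4 motif CAAAGTCCA in Alpi (chr1:87101607-87101856, minus strand), Cyp2c65 (chr19:39060756-39061005, plus strand) and Gimd1 (chr3:132629596-132629845, plus strand). They mark the GATA motif AGATAAG in Ugt2b35 (chr5:87000610-87000859, plus strand).
Alpi promoter: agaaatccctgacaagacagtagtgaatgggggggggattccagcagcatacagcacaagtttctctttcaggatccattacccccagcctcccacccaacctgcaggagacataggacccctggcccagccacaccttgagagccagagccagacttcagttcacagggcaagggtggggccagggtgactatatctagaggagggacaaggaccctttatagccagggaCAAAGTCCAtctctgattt
Cyp2c65 promoter: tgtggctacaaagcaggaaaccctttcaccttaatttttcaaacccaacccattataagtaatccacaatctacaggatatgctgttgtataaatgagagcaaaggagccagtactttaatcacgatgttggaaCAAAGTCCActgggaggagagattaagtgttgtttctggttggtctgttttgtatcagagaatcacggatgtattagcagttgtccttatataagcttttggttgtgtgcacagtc
Gimd1 promoter: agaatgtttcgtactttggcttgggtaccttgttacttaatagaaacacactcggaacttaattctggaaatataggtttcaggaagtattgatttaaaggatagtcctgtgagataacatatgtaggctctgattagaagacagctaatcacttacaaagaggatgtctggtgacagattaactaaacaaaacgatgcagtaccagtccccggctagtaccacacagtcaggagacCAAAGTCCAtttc
Ugt2b35 promoter: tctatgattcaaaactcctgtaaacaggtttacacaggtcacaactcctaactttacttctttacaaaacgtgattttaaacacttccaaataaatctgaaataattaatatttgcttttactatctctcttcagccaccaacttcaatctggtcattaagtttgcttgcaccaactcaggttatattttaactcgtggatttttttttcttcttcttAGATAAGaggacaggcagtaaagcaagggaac

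The motif began 19 bases before the start site in Alpi, 116 in Cyp2c65, 13 in Gimd1 and 32 in Ugt2b35. Gimd1 has another start site in the table, for which the same motif began 95 bases before it. Searched on both strands, CAAAGTCCA stood in the promoter of 0.451% of 27025 genes and AGATAAG in 3.17%. Of the 15 genes named for the largest positive fold change, 12 had a promoter in the table, of which 3 held CAAAGTCCA and 1 held AGATAAG. Of the 15 named for the largest negative fold change, 13 had one, of which 0 held either motif. Other motifs were searched in the same way. The shorter GATA motif AGATAA, which the longer one contains, stood in 2 of those 12 promoters, in 1 of those 13 and in 11.4% of all genes. The FOXA motif TGTTTAC stood in 1 of 12, in 0 of 13 and in 3.54% of genes, and the TCF motif ATCAAAG in 1 of 12, in 0 of 13 and in 3.72%. Of the promoters printed above, Gimd1 also held AGATAA and Ugt2b35 also held TGTTTAC on the opposite strand, neither set in capitals. The HNF4 variant CAAAGTTCA (0.392% of genes) and the CDX motif TTTATGG (2.83%) stood in 0 of 12 and 0 of 13. These matches are letters in a short window, and binding was not measured.

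Mucin and trefoil genes were more often lower than higher in mT69a. Of 13 measured of 19 mucin and trefoil genes, 9 were lower and 1 higher, with a median of -2.96, and the lower calls became 6, 7, 8 and 7 with a library left out. Muc4, a membrane mucin of tumours, had 2 and 3.77 CPM in mT69a controls, against 112 and 262 CPM in mT6 controls, log2 fold change -6.03 ± 0.60, adjusted p = 0.000161. Muc20, another membrane mucin, had 0.438 and 0.673 CPM in mT69a against 14.5 and 19.1 in mT6, log2 fold change -4.91 ± 0.29, adjusted p = 2.66e-06. Muc1, present on most glandular epithelium, had 138 and 143 CPM in mT69a against 267 and 281 in mT6, log2 fold change -0.96 ± 0.13, adjusted p = 0.00053. For these 3 membrane mucins, as for every called gene and 63.0% of all tested genes, the libraries of the groups did not overlap. Among gel-forming mucins, Muc5b was 23-fold (exact 95% counting interval 7.63 to 114) lower (0.0625 and 0.135 CPM in mT69a against 1.37 and 2.64 in mT6, adjusted p = 0.0128). Its call was lost without mT69a control 1, mT69a control 2 or mT6 control 2. It was also lost with limma on log2(TPM + 1), log2(TPM + 0.1) and log2(TPM + 1) without a filter (adjusted p = 0.604, 0.195 and 0.756). The gastric mucin Muc5ac had 4.63 and 10.2 CPM in mT69a against 5.18 and 15.3 in mT6 and did not pass (log2 fold change -0.50 ± 0.58, adjusted p = 0.577). Tff1, the gastric trefoil factor, had 12.4 and 6.06 CPM in mT69a against 53.6 and 17.1 in mT6 and missed the threshold (log2 fold change -1.92 ± 0.64, adjusted p = 0.0535), passing it with the replicate block (0.0382), in DESeq2 (0.00508) and without mT6 control 2 (0.0201).

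Stem cell and Wnt genes lay more often on the mT6 side. Of 37 measured of 43 stem cell and Wnt target genes, 18 were lower and 6 higher in mT69a, with a median of -0.56. With a library left out the lower calls became 12, 16, 15 and 13 and the higher calls 2, 5, 5 and 3. Olfm4, a secreted marker of intestinal stem cells, had 0.0625 and 0 CPM in mT69a controls, against 159.7 and 67.2 CPM in mT6 controls. With 1 count over both mT69a controls and 3979 over both mT6 controls, it was 2984-fold (exact 95% counting interval 535 to 117891) lower, adjusted p = 1.03e-05. Lef1, a nuclear partner through which beta-catenin acts (GRCm38 chr3:131110471-131224356), had 0 and 0 CPM in mT69a controls, against 15 and 32.4 CPM in mT6 controls, and was at least 276-fold lower, adjusted p = 0.000721. Sox4, a factor of progenitor cells, had 0.0625 and 0 CPM in mT69a controls, against 50.5 and 22.6 CPM in mT6 controls, and was 972-fold (exact 95% counting interval 174 to 38418) lower, adjusted p = 0.00152. In mT69a controls these 3 genes were at 0 or 1 count. Lgr5, the R-spondin receptor of intestinal stem cells, was present in both lines (21.7 and 43.8 CPM in mT69a against 69.2 and 70.5 in mT6, log2 fold change -1.09 ± 0.31, adjusted p = 0.0271), and its call was lost without mT69a control 1 (0.155), mT6 control 1 (0.0739) or mT6 control 2 (0.0898). Axin2, the general Wnt feedback target, had 36 and 42.5 CPM in mT69a against 34 and 38 in mT6 and did not pass (log2 fold change 0.12 ± 0.14, adjusted p = 0.557). Lgr4, the broadly expressed relative of Lgr5, had 95.2 and 119.9 CPM in mT69a against 71.1 and 92.1 in mT6 (log2 fold change 0.40 ± 0.23, adjusted p = 0.223, 0.00405 with the block).

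**Figure D2:**
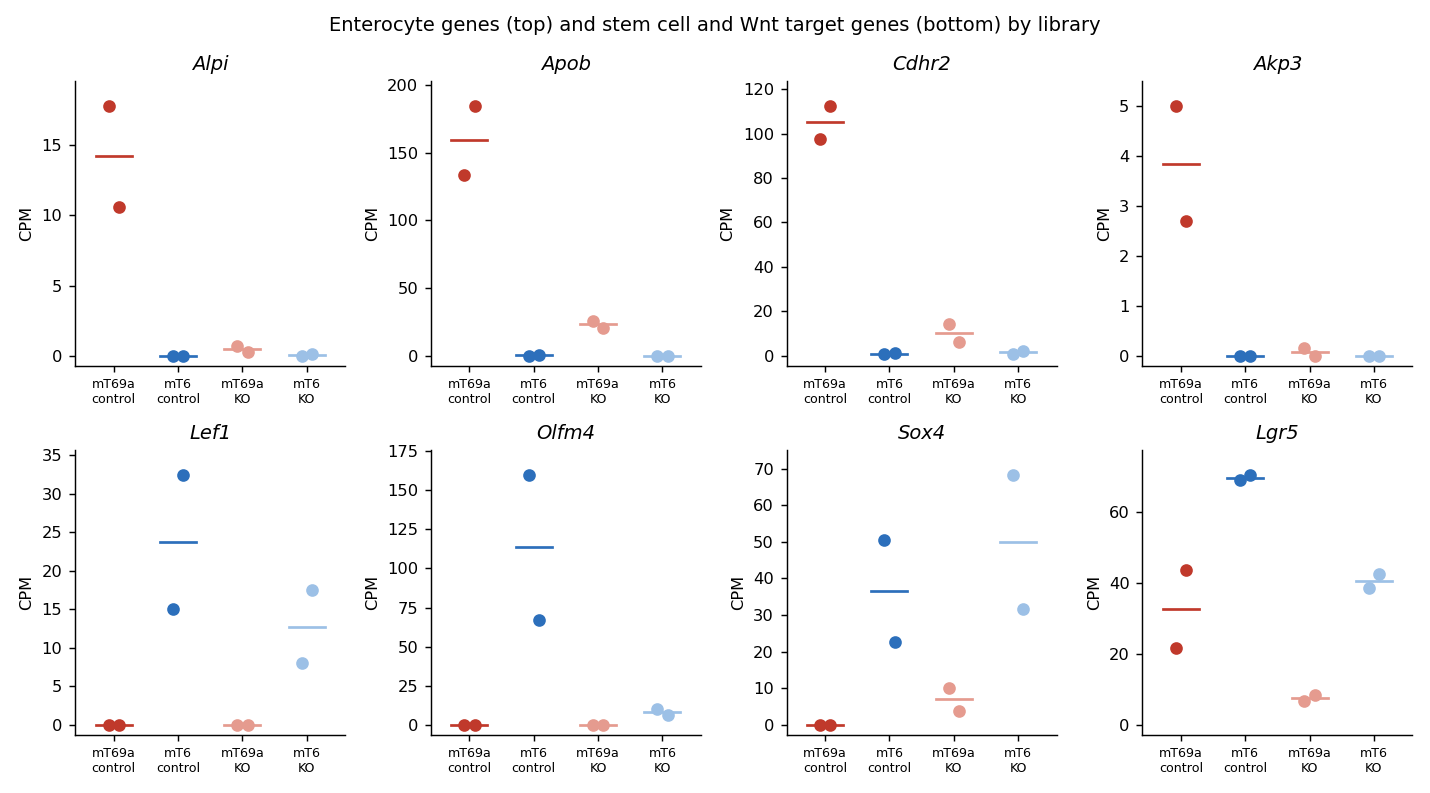
Levels of 4 enterocyte genes (upper row) and 4 stem cell and Wnt target genes (lower row) in CPM on linear axes, with a point for each library and a line at the group mean, for controls and Spdef knockouts (KO). Alpi, Apob, Cdhr2 and Akp3 were at or near 0 in mT6 controls, Lef1, Olfm4 and Sox4 were at or near 0 in mT69a controls, and Lgr5 was present in both.

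Upstream of these targets, 12 of 24 measured Wnt receptors and inhibitors were lower and 2 higher, with a median of -0.65. The lower calls became 9, 9, 11 and 10 with a library left out. Fzd3 and Fzd2, Frizzled receptors, had 1.06 and 0.606 CPM in mT69a against 23.3 and 29.6 in mT6 (log2 fold change -4.97 ± 0.36, adjusted p = 1.03e-05) and 0.688 and 1.01 CPM in mT69a against 3.96 and 4.21 in mT6 (log2 fold change -2.26 ± 0.37, adjusted p = 0.00156). Ror2, a receptor of the non-canonical branch, was at least 55.7-fold lower (0 and 0 CPM in mT69a against 4.57 and 5.82 in mT6, adjusted p = 0.000336), and Ptk7, a co-receptor of planar cell polarity, had 9.25 and 7.47 CPM in mT69a against 38.8 and 42.9 in mT6, log2 fold change -2.29 ± 0.17, adjusted p = 1.11e-05. Of 7 measured of 24 Wnt ligands, 2 were lower and 0 higher (28.6% called, against 28.2% of all tested genes). Wnt7b, a ligand of epithelia, had 76.1 and 57.7 CPM in mT69a against 82.6 and 50 in mT6 and did not pass (log2 fold change 0.02 ± 0.34, adjusted p = 0.979). Wls, which carries Wnt proteins to the surface, had 43.8 and 62.3 CPM in mT69a against 79.6 and 111 in mT6, log2 fold change -0.85 ± 0.28, adjusted p = 0.0443, and lost its call without mT69a control 1 (0.276) or mT6 control 2 (0.247).

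Hedgehog and BMP pathway genes were split, with 9 higher and 9 lower of 32 measured. Smo, the signal transducer of Hedgehog, had 0.125 and 0 CPM in mT69a controls, against 18.8 and 24.1 CPM in mT6 controls, and was 345-fold (exact 95% counting interval 95.3 to 2856) lower, adjusted p = 1.36e-06. Tgfbr3, a co-receptor of TGF-beta ligands, had 0.375 and 0.337 CPM in mT69a against 6.93 and 12.1 in mT6, log2 fold change -4.72 ± 0.50, adjusted p = 9.90e-05. The ligand Bmp4 had 10.6 and 10.4 CPM in mT69a against 1.9 and 1.43 in mT6, log2 fold change 2.69 ± 0.21, adjusted p = 1.54e-05, and Id3, a direct target of BMP signalling, had 31.9 and 29.4 CPM in mT69a against 2.97 and 2.46 in mT6, log2 fold change 3.51 ± 0.22, adjusted p = 4.13e-06. Ligand and target were thus both higher in mT69a. Of 18 measured Notch pathway genes, 3 were higher and 5 lower, the lower calls becoming 2, 3, 3 and 3 with a library left out and 8 with the block. The receptor Notch3 had 2.63 and 4.11 CPM in mT69a against 28.6 and 44.4 in mT6, log2 fold change -3.45 ± 0.26, adjusted p = 1.06e-05, the ligand Jag1 had 34.3 and 30.6 CPM in mT69a against 9.6 and 12.3 in mT6, log2 fold change 1.56 ± 0.18, adjusted p = 0.000187, and the target Hes1 did not pass (34.3 and 23.5 CPM in mT69a against 33.6 and 21 in mT6, log2 fold change 0.09 ± 0.33, adjusted p = 0.869).

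Growth factor receptors were split as well, with 7 higher and 7 lower of 38 measured ERBB, MET, FGF and IGF pathway genes, the higher calls becoming 4, 6, 5 and 7 with a library left out. Fgfr2, an epithelial FGF receptor, had 0 and 0 CPM in mT69a controls, against 3.2 and 14.2 CPM in mT6 controls, and was at least 109.7-fold lower, adjusted p = 0.00682, a call lost in a fit of the 4 control libraries alone (0.064). The ligand Fgf9 was at least 81.2-fold lower (0 and 0 CPM in mT69a against 8.76 and 7.5 in mT6, adjusted p = 5.22e-05). Igfbp4 and Igfbp3, which bind insulin-like growth factors, differed in opposite directions. Igfbp4 had 0.813 and 0.943 CPM in mT69a against 86.1 and 71.9 in mT6, log2 fold change -6.48 ± 0.35, adjusted p = 1.74e-06, whereas Igfbp3 was at least 84-fold higher (7.13 and 5.05 CPM in mT69a against 0 and 0 in mT6, adjusted p = 9.36e-05). Of 24 measured MAPK output genes 3 were higher and 4 lower (29.2% called, against 28.2% of all tested genes). The higher calls became 0, 2, 3 and 1 with a library left out. Etv1, an ETS factor downstream of ERK, had 0.938 and 1.35 CPM in mT69a against 8.83 and 14.6 in mT6, log2 fold change -3.37 ± 0.36, adjusted p = 0.000102. Of 20 measured YAP and TEAD targets 3 were higher and 3 lower (30.0% called). Among the lower ones was Amotl1, an angiomotin that binds YAP. It had 10 and 6.87 CPM in mT69a against 144 and 79.5 in mT6, log2 fold change -3.72 ± 0.64, adjusted p = 0.00312.

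Col4a1 and Col4a2, the paired chains of type IV collagen, were higher in mT69a. Col4a1 had 233 and 269.8 CPM in mT69a controls, against 14.1 and 10.04 CPM in mT6 controls, log2 fold change 4.40 ± 0.23, adjusted p = 1.28e-06, and Col4a2 had 177 and 204 CPM in mT69a against 9.98 and 8.86 in mT6, log2 fold change 4.34 ± 0.32, adjusted p = 1.20e-05. They lie side by side on chromosome 8, whose median over all tested genes was -0.34. Lamb1, a laminin chain, had 2.5 and 4.18 CPM in mT69a against 62.1 and 85.4 in mT6, log2 fold change -4.47 ± 0.27, adjusted p = 2.66e-06, and Nid1, which bridges laminin and collagen IV, had 0.188 and 0.0673 CPM in mT69a against 18.7 and 13.1 in mT6, log2 fold change -6.84 ± 0.50, adjusted p = 1.04e-05. The basement membrane list was split in this way, with 5 higher and 3 lower of 20 measured. Col18a1, its highest member that did not pass, had 162 and 178 CPM in mT69a against 168 and 209 in mT6, log2 fold change -0.15 ± 0.14, adjusted p = 0.456.

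Interstitial matrix genes were more often lower than higher in mT69a, with 11 lower and 2 higher of 29 measured of 67 and a median of -1.68 (-1.54 with genes at 0 set to their bound). With the block 17 were lower. Col14a1, a fibril-associated collagen, had 0.875 and 1.14 CPM in mT69a against 11.8 and 18.9 in mT6, log2 fold change -3.93 ± 0.38, adjusted p = 5.41e-05. The matricellular genes Ccn3 and Spp1 (osteopontin) had 0.0625 and 0.202 CPM in mT69a against 1.98 and 4.39 in mT6 (log2 fold change -4.55 ± 0.80, adjusted p = 0.00231) and 7.56 and 5.93 CPM in mT69a against 82.2 and 48.8 in mT6 (log2 fold change -3.27 ± 0.36, adjusted p = 0.000182). Tnxb, a tenascin, was 79.9-fold (exact 95% counting interval 21.8 to 664) lower (0.0625 and 0.0673 CPM in mT69a against 3.12 and 6.14 in mT6), adjusted p = 0.000375. Fibroblast markers were at or near 0 in both lines, with Col1a1 at 1 and 2 counts in mT69a and 0 and 2 in mT6. Of the 17 measured enzymes that modify collagen, 5 were lower and 2 higher. Plod2, a lysyl hydroxylase, had 7.69 and 9.83 CPM in mT69a against 139 and 132 in mT6, log2 fold change -3.95 ± 0.16, adjusted p = 2.84e-07, and Loxl2, a lysyl oxidase, had 0.375 and 0.404 CPM in mT69a against 21.8 and 13.4 in mT6, log2 fold change -5.46 ± 0.50, adjusted p = 3.78e-05. P4ha2, a prolyl hydroxylase, was lower (-1.54 ± 0.21, adjusted p = 0.000484) and the procollagen enhancer Pcolce2 higher (2.07 ± 0.32, adjusted p = 0.00108).

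Of 34 measured matrix proteases and inhibitors, 4 were higher and 6 lower (29.4% called, against 28.2% of all tested genes). With the block 8 were higher, and the lower calls became 2, 2, 4 and 3 with a library left out. Mmp7, the epithelial matrilysin, was 418-fold (exact 95% counting interval 74.8 to 16558) lower (0.0625 and 0 CPM in mT69a against 23.4 and 8.96 in mT6, adjusted p = 6.75e-05). Serpinb5, maspin, was higher (2.49 ± 0.29, adjusted p = 0.0002). Mmp15, a membrane-bound metalloproteinase, was lower (-2.43 ± 0.18, adjusted p = 1.20e-05). Integrins were split, with 6 higher and 6 lower of 23 measured. Itga1, a collagen receptor chain, had 3.63 and 6.06 CPM in mT69a against 0.228 and 0.286 in mT6, log2 fold change 4.15 ± 0.48, adjusted p = 0.000172. Itgb2, a beta chain best known from leukocytes, was 155-fold (exact 95% counting interval 52.9 to 755) lower (0.0625 and 0.135 CPM in mT69a against 15.8 and 14.8 in mT6, adjusted p = 2.87e-06), and Itgb7, another such chain, was 69-fold (exact 95% counting interval 12.1 to 2754) lower (0 and 0.0673 CPM in mT69a against 2.13 and 2.29 in mT6, adjusted p = 0.000234). Itgb5, a chain of vitronectin receptors, was lower by less (log2 fold change -2.21 ± 0.24, adjusted p = 0.000126). Itgb1, the beta chain shared by many integrins, had 215 and 267 CPM in mT69a against 285 and 346 in mT6 and did not pass (log2 fold change -0.39 ± 0.19, adjusted p = 0.157, 0.00364 with the block). Ptprc, the pan-leukocyte marker, had 0 and 0 counts in mT69a and 1 and 0 in mT6.

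Of 13 measured of 31 genes of epithelial-mesenchymal transition, 0 were higher and 4 lower (30.8% called, against 28.2% of all tested genes). DESeq2 called 3 lower, and the lower calls became 3, 2, 3 and 3 with a library left out. Cald1, an actin-binding protein, had 0.313 and 0.0673 CPM in mT69a against 4.49 and 2.04 in mT6, log2 fold change -3.99 ± 0.62, adjusted p = 0.0012. S100a4, a calcium-binding protein of motile cells, had 3.38 and 2.9 CPM in mT69a against 5.41 and 8.14 in mT6, log2 fold change -1.13 ± 0.25, adjusted p = 0.00787, lost without mT69a control 2 (0.0572) or mT6 control 2 (0.0831). Of 23 measured claudins and junction cadherins, 8 were higher and 2 lower, and the higher calls became 4, 4, 3 and 5 with a library left out. Cldn8, a tight junction protein, was among the 2 lower (0.313 and 0.0673 CPM in mT69a against 15.6 and 34.4 in mT6, log2 fold change -6.96 ± 1.12, adjusted p = 0.00234).

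In controls, metabolic genes leaned towards mT69a in several lists, not all of which did so in the knockouts (below). Amino acid and one-carbon genes had 23 higher and 3 lower of 54 measured, with a median of 0.47, the higher calls becoming 14, 19, 20 and 14 with a library left out. Oat, ornithine aminotransferase, had 181 and 211 CPM in mT69a controls, against 50.6 and 43.7 CPM in mT6 controls, log2 fold change 2.06 ± 0.16, adjusted p = 1.49e-05. Cth, which makes cysteine from cystathionine, had 9.69 and 8.75 CPM in mT69a against 3.5 and 2.61 in mT6, log2 fold change 1.61 ± 0.35, adjusted p = 0.00663 (0.0581 without mT6 control 2), and Paox, a polyamine oxidase, was higher too (log2 fold change 1.68 ± 0.12, adjusted p = 1.07e-05). Ass1, argininosuccinate synthase, was the member furthest below mT6 (2.06 and 1.21 CPM in mT69a against 9.98 and 9.68 in mT6, log2 fold change -2.57 ± 0.31, adjusted p = 0.000229).

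Cholesterol synthesis genes had 10 higher and 1 lower of 24 measured, with a median of 0.40, the higher calls becoming 4, 9, 6 and 7 with a library left out and 15 with the block. Cyp51, Lss and Mvk, enzymes of that pathway, were higher by 0.90 ± 0.15, 0.88 ± 0.18 and 0.86 ± 0.14 on the log2 scale (adjusted p = 0.00147, 0.00529 and 0.00177). These were changes of less than 2-fold. Fatty acid synthesis and lipid storage genes had 14 higher and 2 lower of 40, with a median of 0.36, the higher calls becoming 10, 10, 8 and 10. Mogat2, which rebuilds triglyceride in enterocytes, had 8.63 and 11.1 CPM in mT69a against 2.13 and 2.11 in mT6, log2 fold change 2.21 ± 0.30, adjusted p = 0.000492. Agpat2, another acyltransferase, was higher (log2 fold change 1.20 ± 0.15, adjusted p = 0.00033). Mlxipl, the carbohydrate-responsive factor ChREBP, had 0.25 and 0.404 CPM in mT69a against 3.5 and 5 in mT6, log2 fold change -3.68 ± 0.47, adjusted p = 0.000336. Acacb, an acetyl-CoA carboxylase, was lower (log2 fold change -2.54 ± 0.65, adjusted p = 0.0197), a call lost without mT69a control 1 (0.114) or mT6 control 2 (0.129). Fatty acid oxidation genes had 14 higher and 3 lower of 35, with a median of 0.34, the higher calls becoming 9, 10, 7 and 8. Acaa2, the last enzyme of mitochondrial beta-oxidation, was higher (log2 fold change 1.70 ± 0.24, adjusted p = 0.000619) and lies on chromosome 18.

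Glycolytic genes did not lean to one side, with 5 higher and 5 lower of 31 measured (32.3% called) and a median of -0.17. With the block 10 were lower, and the lower calls became 3, 4, 4 and 4 with a library left out. Pklr, the liver and gut pyruvate kinase, had 7.88 and 9.02 CPM in mT69a controls, against 0.152 and 0.107 CPM in mT6 controls, log2 fold change 6.01 ± 1.03, adjusted p = 0.0021. Slc16a3, the lactate exporter, and Aldoc, an aldolase, were lower (log2 fold change -1.79 ± 0.28, adjusted p = 0.00124, and log2 fold change -1.57 ± 0.20, adjusted p = 0.000391). Gapdh had 1533 and 1275 CPM in mT69a against 2147 and 1860.1 in mT6 and did not pass (log2 fold change -0.51 ± 0.27, adjusted p = 0.19, 0.00581 with the block). Respiratory chain genes encoded in the nucleus had 16 higher and 5 lower of 75 measured, at small sizes (median 0.21). The share of them called in either direction was close to that of all tested genes (28.2%). With a library left out the higher calls became 3, 13, 11 and 4 and the lower calls 2, 3, 3 and 3, and the block gave 30 higher and 10 lower. Cox5a and the electron carrier Cycs were higher (log2 fold change 1.11 ± 0.15, adjusted p = 0.000532, and log2 fold change 0.88 ± 0.20, adjusted p = 0.00814), Cycs losing its call without mT69a control 1 (0.0676). Atp5a1, a subunit of ATP synthase on chromosome 18, was higher (log2 fold change 0.79 ± 0.12, adjusted p = 0.00125), and Ndufv3, a complex I subunit on chromosome 17, was lower (log2 fold change -1.20 ± 0.19, adjusted p = 0.00113). Ppargc1a, a coactivator of mitochondrial genes, was at least 56-fold lower (0 and 0 CPM in mT69a against 5.41 and 5.46 in mT6, adjusted p = 1.63e-05).

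Retinoid, aldehyde and xenobiotic genes were called about as often in each direction, with 24 higher and 25 lower of 88 measured. The lower calls became 15, 21, 27 and 18 with a library left out. Cbr2, a carbonyl reductase, had 0.563 and 1.41 CPM in mT69a controls, against 116 and 129.7 CPM in mT6 controls, log2 fold change -6.96 ± 0.40, adjusted p = 2.87e-06. Of 41 measured glutathione and NRF2 target genes, 9 were higher and 4 lower (31.7% called, against 28.2% of all tested genes). The higher calls became 5, 7, 8 and 4 with a library left out. The block gave 14 higher and 8 lower. Gss, glutathione synthetase, and Abcc3, an organic anion exporter, were higher (log2 fold change 1.61 ± 0.26, adjusted p = 0.00154, and log2 fold change 1.54 ± 0.31, adjusted p = 0.00521), and Gpx8 was lower (log2 fold change -2.86 ± 0.26, adjusted p = 3.88e-05).

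**Figure D3:**
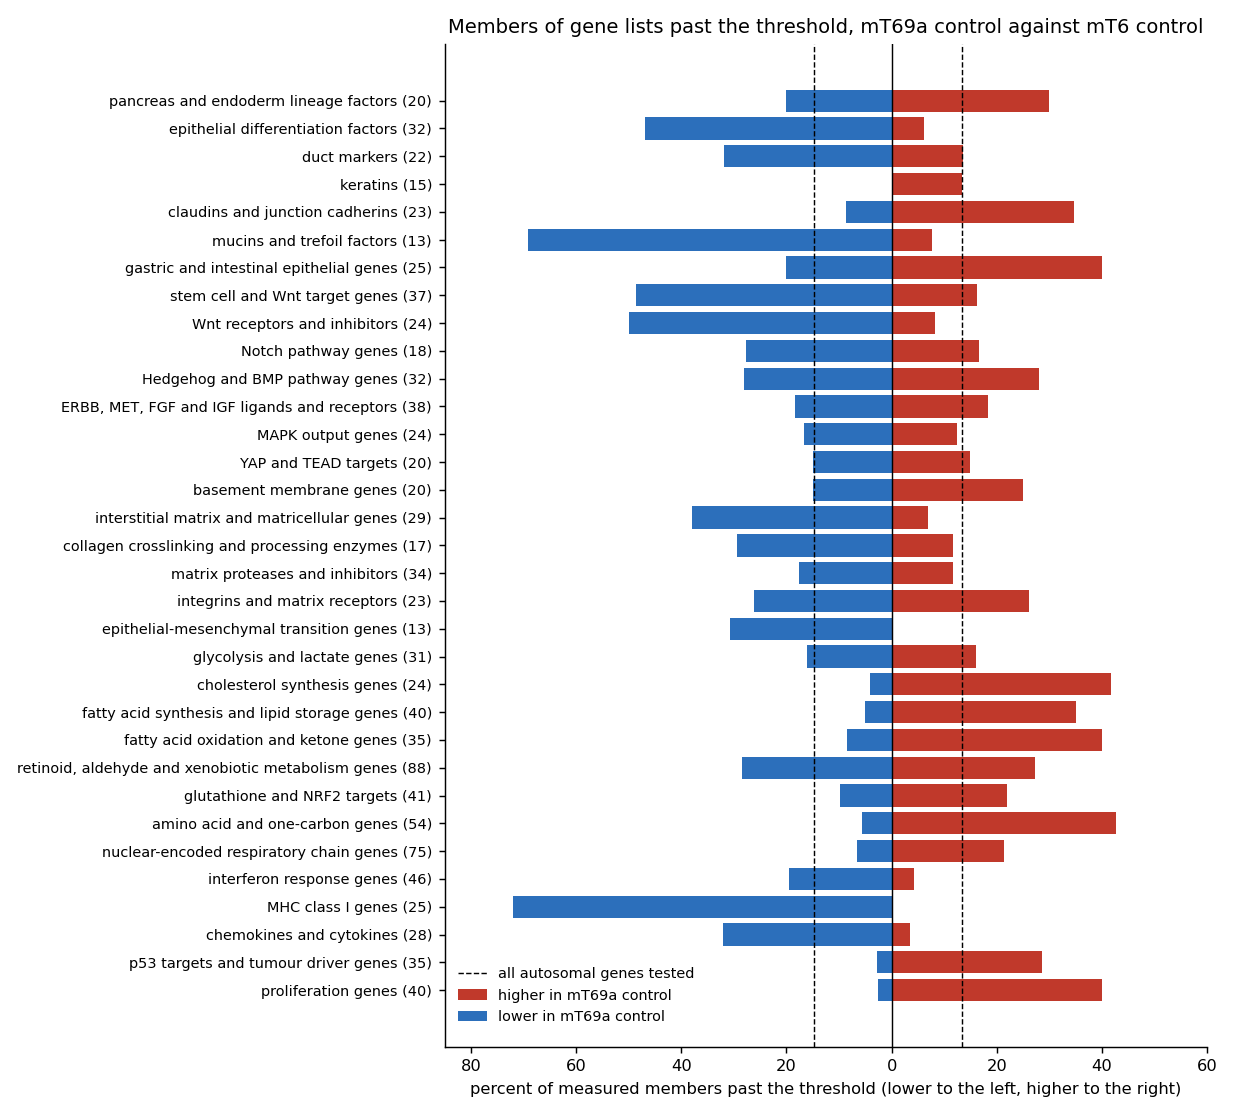
Percent of the measured members (number in brackets) of each gene list with at least 13 of them that were higher (bars to the right) or lower (bars to the left) in mT69a controls than in mT6 controls, with dashed lines at the shares of all autosomal genes tested (13.4% and 14.8%). Among the lists plotted, MHC class I genes and mucins have the longest bars to the left, and amino acid, cholesterol, fatty acid oxidation and proliferation genes have long bars to the right.

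MHC class I genes, which present peptides to T cells, were lower in mT69a, with 18 of 25 measured of 31 lower, 0 higher and a median of -1.67. The lower calls became 12, 14, 15 and 15 with a library left out. H2-Q7 was 189.7-fold (exact 95% counting interval 33.7 to 7523) lower (0.0625 and 0 CPM in mT69a against 7.31 and 5.61 in mT6), adjusted p = 4.10e-05. H2-Q10 and H2-Q2 had 0.438 and 1.28 CPM in mT69a against 21.3 and 34.7 in mT6 (log2 fold change -5.04 ± 0.42, adjusted p = 2.74e-05) and 1.69 and 2.56 CPM in mT69a against 17.8 and 18.5 in mT6 (log2 fold change -3.10 ± 0.28, adjusted p = 3.48e-05). Tap2, a subunit of the peptide transporter, had 0.813 and 1.55 CPM in mT69a against 7.08 and 9.11 in mT6, log2 fold change -2.78 ± 0.31, adjusted p = 0.000137. These genes lie on chromosome 17, whose median over all tested genes was -0.43, and the H2-Q genes are near-identical copies between which estimated counts are uncertain. Of 46 measured interferon response genes, 9 were lower and 2 higher, with a median of -1.25 (-1.22 with genes at 0 set to their bound). That is 23.9% called, against 28.2% of all tested genes. DESeq2 called 15 lower, and the lower calls became 0, 3, 5 and 5 with a library left out. Ifitm3, an antiviral membrane protein, had 0.75 and 1.55 CPM in mT69a against 8.15 and 5.29 in mT6, log2 fold change -2.53 ± 0.67, adjusted p = 0.0215, lost without mT69a control 1 (0.152), mT69a control 2 (0.0507) or mT6 control 1 (0.0837). Parp14 was lower (log2 fold change -2.90 ± 0.57, adjusted p = 0.00584), which was lost without mT69a control 1 (0.0608), whereas the glycoprotein Lgals3bp was higher (99.2 and 115 CPM in mT69a against 4.34 and 8.93 in mT6, log2 fold change 3.97 ± 0.52, adjusted p = 0.000819).

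Chemokines and cytokines had 9 lower and 1 higher of 28 measured, the lower calls becoming 2, 2, 4 and 11 with a library left out, 18 with the block and 14 in DESeq2. Cxcl5, a neutrophil attractant, had 3.94 and 3.7 CPM in mT69a controls, against 462 and 95.7 CPM in mT6 controls, log2 fold change -6.18 ± 0.85, adjusted p = 0.00114. Cxcl1, which acts on the same receptor, was 267-fold (exact 95% counting interval 91.1 to 1297) lower (0 and 0.202 CPM in mT69a against 62 and 9.07 in mT6, adjusted p = 0.0179). The mT6 controls differed from each other in both genes, and the call of Cxcl1 was lost without mT69a control 1 (0.1), mT69a control 2 (0.0616) or mT6 control 1 (0.0785). The complement component C3 was lower (0.25 and 0.135 CPM in mT69a against 28.6 and 7.79 in mT6, log2 fold change -6.47 ± 1.04, adjusted p = 0.00234). Lcn2, the siderophore-binding lipocalin, was 116-fold (exact 95% counting interval 20.6 to 4621) lower (0 and 0.0673 CPM in mT69a against 9.06 and 1.29 in mT6, adjusted p = 0.025), lost without mT69a control 1 (0.155), mT69a control 2 (0.0956) or mT6 control 1 (0.0876). Vsir, the checkpoint ligand VISTA, was at least 127-fold lower (0 and 0 CPM in mT69a against 4.95 and 15.9 in mT6, adjusted p = 0.000559).

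Among genes that drive pancreatic cancer, Trp53 had 50.9 and 33.8 CPM in mT69a against 54.2 and 37.8 in mT6 (log2 fold change -0.12 ± 0.30, adjusted p = 0.811), Cdkn2a 45.3 and 40.9 CPM in mT69a against 43.4 and 42.3 in mT6 (log2 fold change 0.01 ± 0.12, adjusted p = 0.967), Smad4 64.1 and 61.5 CPM in mT69a against 61.1 and 44.6 in mT6 (log2 fold change 0.25 ± 0.18, adjusted p = 0.339) and Myc 83 and 61.8 CPM in mT69a against 96.7 and 71.1 in mT6 (log2 fold change -0.21 ± 0.27, adjusted p = 0.603). None of these 4 genes passed the test in its level, and the alleles were not read. Rb1, the retinoblastoma protein that restrains entry into the cell cycle, had 33.1 and 44.7 CPM in mT69a against 13.6 and 11 in mT6, log2 fold change 1.67 ± 0.19, adjusted p = 0.000191. Of 35 measured p53 targets and driver genes, 10 were higher and 1 lower (31.4% called, against 28.2% of all tested genes). The higher calls became 3, 7, 6 and 2 with a library left out and 17 with the block. Of 40 measured proliferation genes, 16 were higher and 1 lower, with a median of 0.34, the higher calls becoming 5, 19, 9 and 8. Rrm2, a subunit of ribonucleotide reductase, and Cdc20, an activator of the anaphase complex, were higher (log2 fold change 1.42 ± 0.17, adjusted p = 0.000217, and log2 fold change 0.96 ± 0.19, adjusted p = 0.004). Top2a, the topoisomerase of dividing cells, had 497 and 471 CPM in mT69a against 428 and 408 in mT6 and did not pass (log2 fold change 0.21 ± 0.12, adjusted p = 0.204).

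Several of the genes furthest apart belong to no list. Rasgrf2, an exchange factor of Ras, was at least 232-fold higher in mT69a controls (18.8 and 14.8 CPM in mT69a against 0 and 0 in mT6, adjusted p = 3.13e-05) and Ptprm, a receptor phosphatase of cell contacts, at least 223-fold higher (13.1 and 19.7 CPM in mT69a against 0 and 0 in mT6, adjusted p = 1.03e-05). Adcy1, an adenylyl cyclase, was at least 66.2-fold higher, and the bounds were 77.8-fold for Tcf23, 76-fold for Hs3st5 and 47.1-fold for Auts2. On the mT6 side, Gnai1, an inhibitory G protein subunit, was at least 107-fold lower in mT69a (0 and 0 CPM in mT69a against 11 and 10.2 in mT6, adjusted p = 1.09e-06), Ppic, a cyclophilin, at least 163-fold lower (0 and 0 CPM in mT69a against 14.9 and 16.4 in mT6, adjusted p = 5.14e-07), and Adgrf1, an adhesion receptor, at least 125-fold lower (0 and 0 CPM in mT69a against 6.93 and 14.6 in mT6, adjusted p = 0.000384). Zfp422, Plcl2, Casd1, Wtip and Fyb2 had bounds of 168-, 141-, 100.2-, 97.5- and 96.7-fold. Ppp1r9a (neurabin) was at least 121-fold lower (0 and 0 CPM in mT69a against 8.68 and 13.3 in mT6), with adjusted p = 0.000929 in edgeR and 0.157 in DESeq2. Each of these genes was at 0 counts, or within the floor, in the controls of 1 line. This need not hold for other clones of that line. Ppic, for example, was called higher in mT69a knockouts than in mT6 knockouts (log2 fold change 1.36).

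As a check of the labelled tissue, duct markers summed to 6260 and 4860 TPM in mT69a controls, against 5430 and 3830 in mT6 controls. Krt19, the duct keratin, had 1126 and 949 CPM in mT69a against 1218 and 677 in mT6 and did not pass (log2 fold change 0.13 ± 0.46, adjusted p = 0.865). Of 22 measured duct markers 3 were higher and 7 lower, 7 being higher with the block. The water channels Aqp5 and Aqp1 differed in opposite directions (log2 fold change 1.92 ± 0.17, adjusted p = 3.13e-05, and log2 fold change -3.71 ± 0.56, adjusted p = 0.00123), and Krt23 was higher (log2 fold change 1.37 ± 0.17, adjusted p = 0.00031). Acinar markers summed to 1.86 and 1.73 TPM in mT69a, against 2.47 and 2.0 in mT6, and endocrine markers to 0.05 and 1.73 in mT69a, against 2.02 and 0.83 in mT6. Ptf1a, Cpa1, Ins1 and Chga had no count. The acinar list had 1 measured member, Bhlha15, the endocrine and fibroblast lists had 0, and the HOX list had 2, both lower. Of 15 measured keratins 2 were higher, of 5 immune markers 2 were lower (0, 0, 0 and 2 with a library left out), and of 5 endothelial markers 1 was higher. Fibroblast markers summed to 0.08 and 0.24 TPM in mT69a, against 0.43 and 0.19 in mT6, and immune markers to 35.2 and 27.3 in mT69a, against 41.9 and 29.0 in mT6. Endothelial markers summed to 20.2 and 17.6 TPM in mT69a, against 11.5 and 11.8 in mT6, with Pecam1 at 0 and 0 counts in mT69a and 2 and 2 in mT6. Tuft cell markers summed to 20.6 and 20.7 TPM in mT69a controls, against 2.07 and 2.14 in mT6 controls. Of 4 measured tuft markers 1 was higher, Avil (advillin, an actin bundler of tuft cells), with 43.8 and 50.7 CPM in mT69a against 0.99 and 0.607 in mT6, log2 fold change 5.96 ± 0.50, adjusted p = 2.98e-05. That is 25.0% called, against 28.2% of all tested genes. Avil was also the only one of the 4 for which the libraries of the groups did not overlap, so the sums do not show a shift of the whole list.

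Spdef itself had 0.108 and 0 CPM in mT69a knockout libraries, against 0 and 0.0984 CPM in mT6 knockout libraries. Set against each other as Spdef knockout clones, the lines differed in 1775 genes higher and 1789 lower in mT69a, 25.4% of those tested. Past the threshold in the same direction in both comparisons were 862 higher genes, 45.7% of the control calls and 48.6% of the knockout calls, and 1025 lower genes, 49.4% and 57.3%. Together these are 13.4% of tested genes. In the opposite direction in the knockout comparison were 34 of the genes higher and 84 of those lower in controls. The difference between the 2 comparisons passed the test for 919 genes (6.54%), including 221 of the genes higher and 411 of those lower in controls. With the block the knockout calls were 2723 higher and 2803 lower, and the difference was called for 949 genes higher and 1182 lower, against 355 (2.53%) and 564 (4.02%) without it. With 1 of the 4 knockout libraries left out, the knockout calls ran from 811 to 1053 higher and from 871 to 1212 lower. With 1 of the 8 libraries left out, the called differences ran from 155 to 233 higher and from 337 to 442 lower.

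Of the 6 lineage factors higher in mT69a controls, 3 were also called in the knockouts, and 3 of the 4 lower ones. Hnf4a had 30.7 and 23 CPM in mT69a knockout libraries, against 16.3 and 24.9 CPM in mT6 knockout libraries (0.37 ± 0.23, adjusted p = 0.264), and its difference between the comparisons was 2.61 ± 0.33, adjusted p = 0.00129. Foxa2 had 3.28 and 2.7 CPM in mT69a knockout libraries, against 5.31 and 4.23 CPM in mT6 knockout libraries (-0.65 ± 0.34, adjusted p = 0.194), with a difference of 3.56 ± 0.49, adjusted p = 0.00206. Gata5, Gata6, Onecut2 and Foxa1 passed in both comparisons, in the same direction. Gata5 had 1.94 and 1.74 CPM in mT69a knockout libraries, against 0 and 0 CPM in mT6 knockout libraries (adjusted p = 0.000379), and Gata6 had 0.484 and 0.261 CPM in mT69a knockout libraries, against 0 and 0 CPM in mT6 knockout libraries (adjusted p = 0.0179). Among the intestinal genes, Apob had 25.2 and 20.7 CPM in mT69a knockout libraries, against 0 and 0 CPM in mT6 knockout libraries (adjusted p = 5.60e-05), Cdhr2 a knockout value of 2.71 ± 0.52, adjusted p = 0.00568, and Ctse one of 6.75 ± 0.54, adjusted p = 4.54e-05. All 3 were called in both comparisons. The gastric and intestinal list had 4 higher and 6 lower in the knockouts, against 10 higher and 5 lower in controls. Of its 10 higher control calls, 3 were higher in both comparisons, against 45.7% of the higher control calls over all genes.

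Of the 18 stem cell and Wnt target genes lower in mT69a controls, 12 were lower in both comparisons. So were 10 of 15 epithelial factors, 8 of 12 Wnt receptors and inhibitors and 6 of 9 mucin and trefoil genes. Over all genes 49.4% of the lower control calls were lower in both. Olfm4 had 0.108 and 0 CPM in mT69a knockout libraries, against 9.99 and 6.49 CPM in mT6 knockout libraries (adjusted p = 0.000405), and Lef1 had 0 and 0 CPM in mT69a knockout libraries, against 7.96 and 17.5 CPM in mT6 knockout libraries (adjusted p = 0.00171). Of the 23 amino acid genes higher in controls, 16 were higher in both. The same held for 9 of 14 fatty acid synthesis genes and 11 of 16 proliferation genes. Over all genes it held for 45.7% of the higher control calls. The amino acid gene Oat had a knockout value of 2.27 ± 0.16, adjusted p = 1.19e-05.

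Other lists had other counts in the knockouts. Fatty acid oxidation genes had 6 higher and 7 lower with a median of 0.02, against 14 higher and 3 lower in controls. Of the 14 higher control calls, 4 were higher in both comparisons, against 45.7% over all genes. Respiratory chain genes had 5 higher and 13 lower with a median of 0.01, against 16 higher and 5 lower. The share of them called in the knockouts was close to that of all tested genes (25.4%). Cholesterol synthesis genes had 6 higher and 0 lower, and 4 were higher in both comparisons. MHC class I genes had 2 higher and 2 lower in the knockouts with a median of 0.05, and the difference between the comparisons was called for 11 of the 25. Of their 18 lower control calls, 2 were lower in both, against 49.4% over all genes. Interferon response genes had 18 higher and 0 lower, with a median of 1.94 against -1.25 in controls, and the difference was called for 8 of 46. Ifitm3 had 46.9 and 22.1 CPM in mT69a knockout libraries, against 4.42 and 4.13 CPM in mT6 knockout libraries (3.02 ± 0.57, adjusted p = 0.00548). Genes of epithelial-mesenchymal transition had 6 higher and 0 lower, with a median of 1.26. Basement membrane genes had 10 higher and 2 lower, with a median of 1.09. Nid1 (2.44 ± 0.30, adjusted p = 0.000379) and Col14a1 (3.49 ± 0.36, adjusted p = 0.000141) were lower in mT69a controls and higher in mT69a knockouts. Col4a1 was higher in both, by less in the knockouts (2.23 ± 0.21, adjusted p = 6.27e-05, difference 2.17 ± 0.29, adjusted p = 0.00179).

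**Figure D4:**
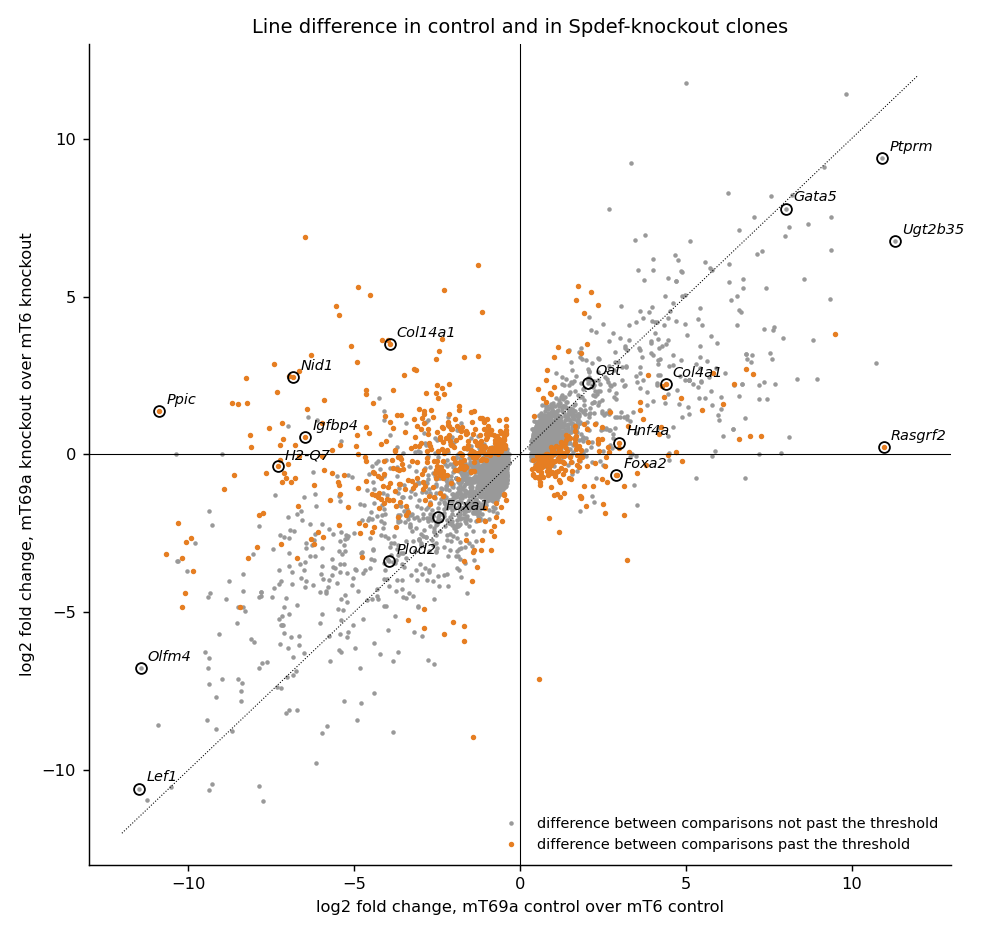
Fitted log2 fold change of mT69a over mT6 in controls (horizontal axis) and in Spdef knockout clones (vertical axis) for the genes past the threshold in controls, in orange where the difference between the comparisons passed too. Lef1, Olfm4, Gata5 and Oat lie on the same side of 0 in both comparisons, Hnf4a and Rasgrf2 lie near 0 in the knockouts, and Nid1 and Col14a1 lie on opposite sides.

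Differences also ran along chromosomes, in part over whole ones and in part over segments. The median log2 fold change over tested genes was 0.55 on chromosome 18, -0.43 on chromosome 17, -0.35 on chromosome 1, -0.34 on chromosome 8 and -0.32 on chromosome 14, and lay within 0.25 of 0 on the other 14 autosomes. On chromosome 18, 159 of 341 tested genes (46.6%) were higher in mT69a, and all 8 windows of about 40 neighbouring genes had a median above 0 (0.36 to 0.79). On chromosome 17, 212 of 691 (30.7%) were lower, and all 17 windows lay below 0. Chromosome 14 had 140 lower genes (27.7%) with 12 of 12 windows below 0, chromosome 8 had 211 (26.7%) with 19 of 19, and chromosome 1 had 220 (24.7%). Chromosome 1 was uneven, with 21 of 22 windows below 0, a median of -0.92 to -0.37 in the first 6 (up to base 63158290, GRCm38) and of -0.10 to 0.01 in windows 8 to 11. Some chromosomes with a median near 0 held shifted segments. Windows 14 to 20 of chromosome 9 lay between -0.64 and -0.24 and window 9 at 0.65, and windows 1 to 5 of chromosome 15 lay between -0.71 and -0.38.

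These shifts were not all shared by the knockout clones. On chromosome 8 the knockout median was -0.36, with 19 of 19 windows below 0 again. On chromosomes 18, 17 and 14 the knockout medians were -0.03, 0.04 and 0.08. On chromosome 1 the knockout median of -0.09 covered segments of opposite sign. Its first 6 windows lay between -0.73 and -0.46, below 0 as in the controls, and windows 16 to 18 lay between 0.69 and 0.77, where the controls lay between -0.33 and -0.22. The segments of chromosomes 9 and 15 were below 0 in the knockouts too, at -0.61 to -0.24 and -0.92 to -0.26. On chromosome 12 the median was -0.48 in knockouts and -0.01 in controls. Library by library, the median deviation from the mean of the 12 libraries was taken over genes with a mean of at least 10 CPM. Chromosome 18 stood at 0.41 and 0.40 in mT69a controls, against -0.12 and -0.15 in mT6 controls. On chromosome 17 the deviation was -0.07 and -0.09 in mT69a controls, against 0.33 and 0.28 in mT6 controls, and on chromosome 1 it was -0.10 and -0.03 in mT69a controls, against 0.30 and 0.25 in mT6 controls. The 8 knockout and re-expression libraries of both lines lay between -0.10 and -0.01 on chromosome 18, between -0.16 and 0.04 on chromosome 17 and between -0.08 and 0.00 on chromosome 1. DNA was not measured. Of the genes described above, Gata6, Onecut2, Acaa2, Atp5a1 and Smad4 lie on chromosome 18, and the log2 fold change was 1.81 for Onecut2, 1.70 for Acaa2, 0.79 for Atp5a1 and 0.25 for Smad4, beside a median of 0.55 for the chromosome.

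**Figure D5:**
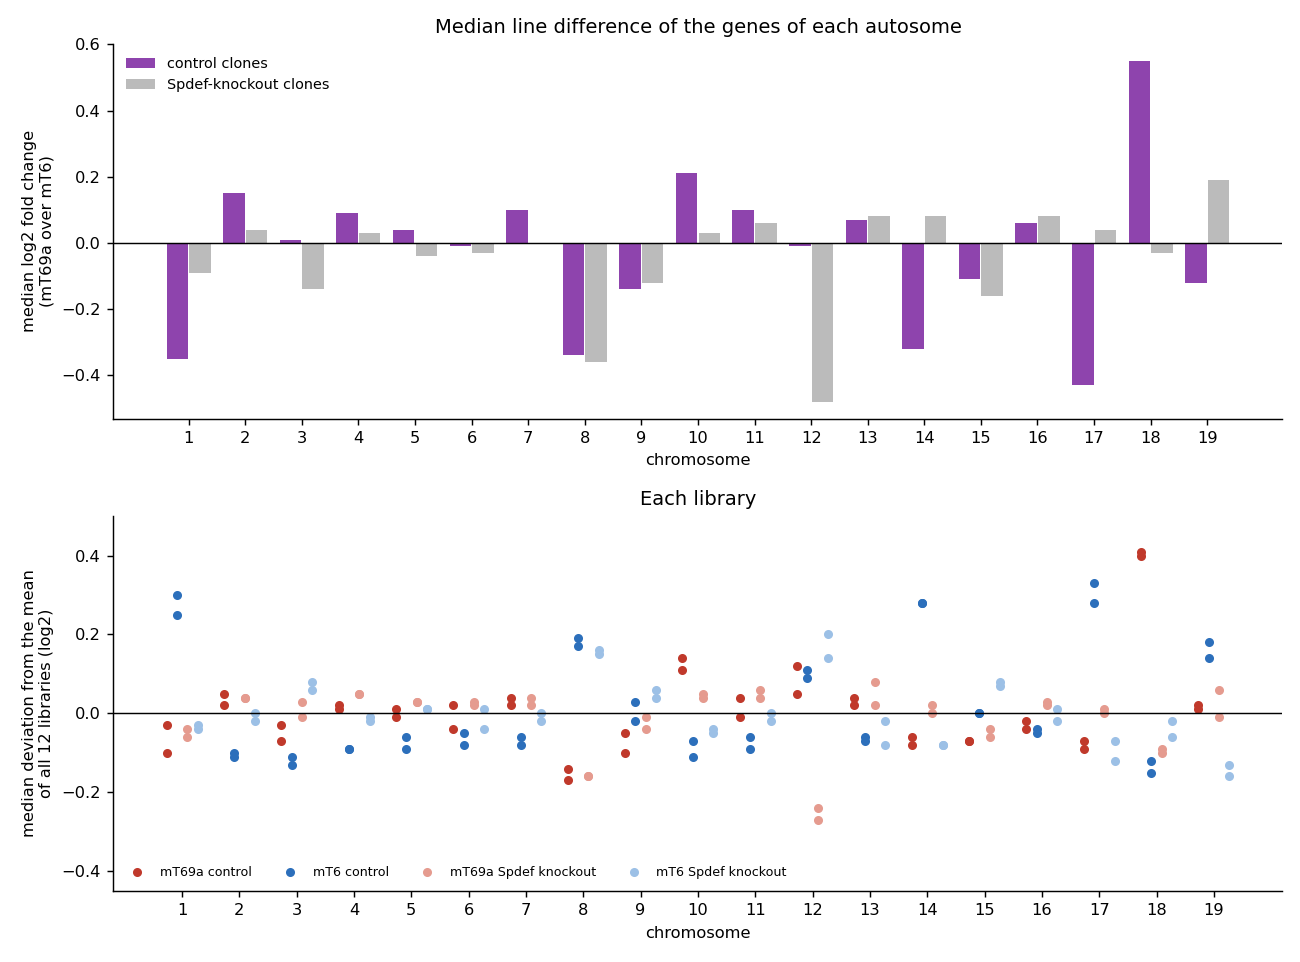
Upper panel, median log2 fold change of mT69a over mT6 over the tested genes of each autosome, in controls and in Spdef knockout clones. Lower panel, median deviation of each control and knockout library from the mean of all 12 libraries on the log2 scale, where chromosome 18 stands high in mT69a controls, chromosomes 1, 14 and 17 in mT6 controls, and chromosome 8 differs between the lines in both states.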

How the data were processed

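Stranded total RNA libraries (TruSeq Stranded Total RNA, per the labels) were aligned and quantified by the authors, and the submitters' processing notes name FastQC 0.11.8, STAR 2.5.2b, RSEM 1.3.0 and the build GRCm38.p6. The deposited tables hold, for each gene and library, an expected count, which RSEM estimates and need not be whole, and a TPM value (transcripts scaled for gene length and library size), both as the authors made them. Gene names and positions came from the matched GENCODE M21 annotation, which named 53620 of 53715 gene IDs. The other 95 held 0.0109% of the counts.

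Expected counts were rounded and fitted with edgeR 4.0.16 in R 4.3.3 (filterByExpr by group, TMM, robust quasi-likelihood fit, group means over all 12 libraries). The Benjamini-Hochberg adjustment ran over all 14473 genes tested, of which the 14047 on chromosomes 1 to 19 are reported. Genes of chromosomes X and Y were left out of all counts. Contrasts were mT69a control against mT6 control, the same for the Spdef knockout clones, and the difference between those contrasts. The biological coefficient of variation was 19.2%. Where a group held 0 counts, a fold is a lower bound against 3 counts summed over its 2 libraries. Where it held 1 to 3, it is a ratio of depth-scaled sums with an exact 95% interval, which covers counting error only. The fit was also run on simulated counts, but the outcome is not reported here.

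Replicate numbers paired the libraries: same-numbered libraries deviated together from their group means in all 15 pairs of groups (r from 0.205 to 0.531), and the main fit carries no block. Alternatives were DESeq2 1.42.0 (Wald test, and its size factors in edgeR), no count filter, only the 4 control libraries, genes of chromosomes X and Y and mitochondrial DNA left out, limma 3.58.1 on log2(TPM + 1) or log2(TPM + 0.1), the replicate block and each library left out in turn. Named genes are a fixed set of lineage and tumour genes, the 15 largest called changes in each direction with a mean of at least 1 CPM, and, per list, up to 4 largest called members and the highest uncalled one. Some genes under this rule, and an allele of the genotype, are not reported here. The members of the comparison, the 41 gene lists and the tests were chosen with earlier results of these data known. Promoter sequences came from RefSeq (GRCm38.p6), and genes with no entry there are named only.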

Additional observations from a re-analysis of the deposited data

Results flagged for a closer look

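The line difference was tested for change between the control clones and the Spdef knockout clones, as the log2 fold change of mT69a over mT6 in controls minus that in knockouts. Of the 151 named genes tested, 45 passed that test (edgeR, adjusted p of at most 0.0441), against 919 (6.54%) of the 14047 autosomal genes. Most named genes were picked for a called or large change in controls, which is part of the tested difference. A higher share among them is thus built in and says nothing about these genes as a set. The number beside each gene below is that difference. The knockout clones are other clones that also lack Spdef, so loss of Spdef and the choice of clone cannot be told apart. Where a group was at or near 0 counts, as for Rasgrf2, Ppic, Runx3, Gnai1 and Fgf9, the fitted size depends on the prior count and is no bound.

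Among lineage and intestinal genes, Hnf4a (2.61), Foxa2 (3.56), Cdhr2 (4.10) and Lypd8 (4.55) stood higher against mT6 in mT69a controls than in mT69a knockouts. The same held for the matrix and protease genes Col4a1 (2.17), Col4a2 (2.52), Pcolce2 (1.68) and Serpinb5 (1.61), for the signalling genes Rasgrf2 (10.74) and Igfbp3 (5.68), and for Rb1 (1.34), Abcc3 (2.33), Paox (0.76) and Atp5a1 (0.78). Of these, Rasgrf2 was at least 232-fold higher in mT69a controls than in mT6 controls, and its knockout value was 0.23.

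The difference was negative, with mT69a standing lower against mT6 in controls than in knockouts, for the matrix genes Nid1 (-9.28), Col14a1 (-7.42), Mmp7 (-7.98), Spp1 (-3.48), Loxl2 (-3.23), Lamb1 (-3.22) and Col18a1 (-2.16). It was negative for the immune genes H2-Q7 (-6.92), Tap2 (-3.43), H2-Q2 (-2.36), Ifitm3 (-5.55), Parp14 (-4.26) and Itgb2 (-6.31), and for the signalling genes Gnai1 (-8.12), Fgf9 (-7.28), Igfbp4 (-7.03), Amotl1 (-4.97), Smo (-4.91), Ptk7 (-2.33) and Notch3 (-1.80). Other genes with a negative difference were Runx3 (-7.53), Muc20 (-5.52), Trib2 (-2.60), Clu (-3.03), S100a4 (-2.25), Ass1 (-1.97), Gpx8 (-1.86), Ppic (-12.23), Casd1 (-6.89), Fyb2 (-5.70) and Wtip (-5.36). Nid1, Col14a1, Ifitm3, S100a4 and Ppic were called in opposite directions in the 2 comparisons. Trib2, which was lower in mT69a controls (adjusted p = 1.67e-05), and Clu, which did not pass there (adjusted p = 0.713), are not described above. The reasons were not tested.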

How the results depend on the processing

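Calls were fewest on the TPM scale and most with the replicate block. With limma on log2(TPM + 1), log2(TPM + 0.1) and log2(TPM + 1) without a filter, genes higher in mT69a controls numbered 692, 717 and 450 and lower ones 1057, 1136 and 805, and higher calls were 47.6% of all calls in edgeR on counts, against 39.6%, 38.7% and 35.9% in these fits. Members of any list numbered 115, 111 and 71 higher, and 140 and 99 lower with the pseudocount of 1. The cause was not tested. With the replicate block the pairing gave 2859 higher genes in controls, 2723 higher and 2803 lower in knockouts, and differences between the comparisons of 949 higher and 1182 lower. It changed the call of 6 of the 151 named genes. With 1 library left out, calls in controls ran from 897 to 1678 higher and 1074 to 1582 lower, list members from 135 to 184 higher and 134 to 190 lower, knockout calls from 811 to 1053 and 871 to 1212, and the differences from 155 to 233 and 337 to 442. In these fits the lone library is taken to vary as the other groups do. DESeq2 (1792 higher, 2022 lower), its size factors (1874 and 2068), no count filter (1953 and 2421) and leaving out chromosomes X, Y and mitochondrial genes (1957 and 2013) stayed within 1.5 times the counts given.

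Of 129 named genes past the threshold, 97 kept call and direction under every alternative run. Losses seen in a TPM fit alone, most of them without a filter, were those of Atp5a1, Bmp4, C3, Cald1, Ccn3, Cdc20, Cdhr5, Cox5a, Cyp51, Gss, Lss, Muc1, Mvk, Ndufv3, Pcolce2, Rb1 and Vsir. Cycs, Ifitm3, Muc5b and Wls lost their call in all 3 TPM fits and also with a library left out. Lcn2 lost it in both fits with the pseudocount of 1 and Cxcl1 in the filtered one. Acacb, Cth, Fgfr2, Lgr5, Parp14 and S100a4 lost it in the unfiltered TPM fit. The genes of the last 2 sentences also lost it under another alternative. Only genes that had not passed changed sign: Vil1 was at -0.00806, -0.00816 and -0.00806 in the 3 TPM fits, and with 1 library left out the log2 fold change ran from -0.062 to 0.11 for Cdkn2a, -0.29 to 1.06 for Clu, -0.29 to 0.0188 for Col18a1, -0.21 to 0.47 for Hes1, -0.23 to 0.62 for Krt19, -1.15 to 0.52 for Muc5ac, -0.44 to 0.0324 for Myc, -0.44 to 0.18 for Trp53 and -0.30 to 0.43 for Wnt7b. Depth limits the genes at 0 in the controls of 1 line: 3 counts over a group correspond to 0.0973 CPM in mT69a controls and 0.0729 CPM in mT6 controls.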
